A study of Homo sapiens with 8 samples.

Results

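The cholesterol and fatty acid synthesis genes are a list of 32 genes: the regulators of the sterol-sensing SREBP transcription factors, the enzymes of cholesterol and fatty acid synthesis, and 1 sterol carrier. They were taken from the array by symbol, as every probe annotated with a listed gene. Probes named 31 of the 32 genes; FDFT1, squalene synthase, was not analysed here, and the older symbol SC5DL was read as SC5D through its gene identifier. The 31 genes had 46 probes, of which 43 were kept because some group had them above background on both of its arrays, and all 31 were among the 12864 genes tested. Where a gene had several such probes, the brightest stood for it, as it did for 10 of the 31.

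RNA was measured in BCBL1 and BC3, cell lines of primary effusion lymphoma, a B-cell lymphoma of body cavities caused by Kaposi sarcoma herpesvirus, which both lines carry. The groups were BCBL1 with 5 µM lenalidomide, BCBL1 with DMSO, BC3 with 5 µM lenalidomide and BC3 with DMSO, in the same medium otherwise, with 2 Illumina bead arrays each and 8 in all. Lenalidomide, an immunomodulatory drug, binds cereblon, part of a ubiquitin ligase, which then marks IKZF1 and IKZF3 for destruction; DMSO is its solvent. Arrays within a group are technical replicates according to the series text, so each p-value here weighs a difference against array spread only, and spread among cultures was not measured. How long the cells were exposed is unstated in the labels, and each line stands for a single tumour.

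Cells make cholesterol from acetyl-CoA through mevalonate and squalene, and fatty acids from the same acetyl-CoA. SREBP proteins switch on most genes of both routes: when sterols in the endoplasmic reticulum are low, SCAP escorts SREBP to the Golgi, where it is cut and freed to enter the nucleus, and when sterols are high, INSIG proteins hold SCAP back. The SREBP made by SREBF2 acts mainly on cholesterol genes and the main one made by SREBF1 mainly on fatty acid genes. Oxysterol-activated LXR receptors raise transcription of SREBF1 and of the cholesterol exporter ABCA1. Dividing lymphoma cells need both lipids for new membranes.

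Median intensities of the arrays were between 137 and 153, and 47.0% to 51.2% of probes were above background. The upper end of the scale differed more: the 95th percentile of intensity was 1942 and 2104 on the BCBL1 lenalidomide arrays, against 2284 and 2435 on the BCBL1 DMSO arrays, and 2517 and 2076 on the BC3 lenalidomide arrays, against 2222 and 2538 on the BC3 DMSO arrays. Quantile normalization sets these to one distribution. The first principal component, with 82.4% of the variance, separated the lines. Of the 8 plasma cell and immunoblast markers, 6 were above background on all 8 arrays; JCHAIN was above it on the 4 BC3 arrays only and TNFRSF8 on none. None of the 5 B cell markers with a probe was above background on all arrays, and PAX5 was on none. Of the markers of other cells, CD2 of 6 for T and NK cells, CD68 of 5 for myeloid cells and ALB of 6 for adipocytes and hepatocytes passed on all 8 arrays. The summed intensity of the plasma cell list was 13730 to 14940 with lenalidomide and 16230 to 16890 with DMSO in BCBL1, and 18270 to 23700 with lenalidomide and 22030 to 25160 with DMSO in BC3. These are sums before normalization, on arrays whose upper end was dimmer in BCBL1 with lenalidomide. On normalized values the 7 plasma cell markers tested had medians of -0.05 in BCBL1 and -0.01 in BC3, and TNFRSF17 fell by 0.64 in BCBL1 and by 0.78 in BC3 on the log2 scale (adjusted p = 0.0142 and 0.00302). The summed intensity of the myeloid list was 846.8 to 857.7 with lenalidomide and 913.7 to 988.3 with DMSO in BCBL1, and 1172 to 1333 with lenalidomide and 915.3 to 1048 with DMSO in BC3. Other marker genes that changed with lenalidomide were CD2, by 0.93 in BCBL1 and 0.62 in BC3, and in BC3 CD68 by 0.68, GZMB by -0.87, JCHAIN by -0.59 and CD3E by -0.52, all log2 values (adjusted p between 8.82e-04 and 0.0301). The part of these shifts in the results on lipid genes was not tested. In bulk RNA, fewer cells of a type and less RNA per cell cannot be told apart.

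The start regions of the genes that carry the results are shown here because SREBP acts there. RefSeq start windows on GRCh38.p14, from 250 bases before to 50 after a start, were found for 28 of the 32 genes, 39 windows in all; SQLE, FASN, ACAT2 and FDFT1 had none here. The sterol regulatory element core CACNCCAC was searched on both strands, as was CCAAT, the letters bound by NF-Y, a factor known to work beside SREBP. No match of one overlapped a match of the other in these windows. CCAAT occurred in 25 of the 39 windows, or 64.1%, against 34.6% of 35116 windows of the same length. The core occurred in 7 of 39, or 17.9%, against 5.87% of all windows, and each of these 7 also held CCAAT, against 1.84% of all windows with both. The 7 windows belonged to 6 of the 28 genes: SREBF2, INSIG1, IDI1, ACACA, SCD and, with a pair of overlapping windows, SC5D. The motifs were chosen after the result of a search with a stricter sterol element was known. The shares above therefore describe these windows and cannot test for an excess over all windows. A match is a description of the letters and not a site. Windows of 7 genes on which the results below turn are printed 5′ to 3′ on the gene's strand, in lower case with each motif match in capitals. They are SREBF1 (chr17:17836937-17837236, minus strand), ACSS2 (chr20:34874739-34875038, plus strand) and ELOVL6 (chr4:110198566-110198865, minus strand), which rose in BC3; LSS (chr21:46228725-46229024, minus strand), HMGCS1 (chr5:43313363-43313662, minus strand) and SCD (chr10:100346983-100347282, plus strand), which lay lower with lenalidomide in BCBL1 without passing the adjusted test; and INSIG1 (chr7:155297628-155297927, plus strand), which differed between the lines.
SREBF1: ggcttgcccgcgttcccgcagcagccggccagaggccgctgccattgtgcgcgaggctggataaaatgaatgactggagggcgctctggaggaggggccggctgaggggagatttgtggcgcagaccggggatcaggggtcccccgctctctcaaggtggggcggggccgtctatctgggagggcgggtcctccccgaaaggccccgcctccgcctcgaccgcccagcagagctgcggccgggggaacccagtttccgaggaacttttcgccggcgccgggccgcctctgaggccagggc
ACSS2: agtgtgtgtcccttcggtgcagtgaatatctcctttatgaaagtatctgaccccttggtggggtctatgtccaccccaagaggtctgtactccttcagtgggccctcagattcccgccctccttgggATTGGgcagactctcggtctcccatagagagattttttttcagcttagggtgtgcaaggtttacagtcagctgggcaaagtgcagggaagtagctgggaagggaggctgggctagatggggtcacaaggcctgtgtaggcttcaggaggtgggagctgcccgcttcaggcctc
ELOVL6: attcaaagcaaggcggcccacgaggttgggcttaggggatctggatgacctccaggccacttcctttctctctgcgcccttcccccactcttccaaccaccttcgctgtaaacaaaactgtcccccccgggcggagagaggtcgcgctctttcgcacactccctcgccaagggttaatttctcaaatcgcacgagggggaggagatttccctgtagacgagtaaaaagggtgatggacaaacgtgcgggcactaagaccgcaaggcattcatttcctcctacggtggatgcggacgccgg
LSS: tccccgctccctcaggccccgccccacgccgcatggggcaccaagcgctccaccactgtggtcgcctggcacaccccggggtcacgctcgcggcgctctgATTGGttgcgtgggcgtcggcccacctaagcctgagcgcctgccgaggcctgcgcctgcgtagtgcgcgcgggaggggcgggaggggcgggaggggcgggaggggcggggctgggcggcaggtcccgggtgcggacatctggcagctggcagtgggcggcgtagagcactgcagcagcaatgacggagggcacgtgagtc
HMGCS1: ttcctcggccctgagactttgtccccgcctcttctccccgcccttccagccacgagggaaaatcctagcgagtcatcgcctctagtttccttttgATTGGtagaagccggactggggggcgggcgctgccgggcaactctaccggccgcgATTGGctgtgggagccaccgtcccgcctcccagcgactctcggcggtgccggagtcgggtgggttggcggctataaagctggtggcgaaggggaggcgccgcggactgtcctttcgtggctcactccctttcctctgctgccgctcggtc
SCD: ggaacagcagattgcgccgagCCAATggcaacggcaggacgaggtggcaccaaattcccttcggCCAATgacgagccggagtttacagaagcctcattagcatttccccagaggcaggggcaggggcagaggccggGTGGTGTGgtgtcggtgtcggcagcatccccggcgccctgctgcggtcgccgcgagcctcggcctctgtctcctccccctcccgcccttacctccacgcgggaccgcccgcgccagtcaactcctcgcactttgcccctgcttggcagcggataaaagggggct
INSIG1: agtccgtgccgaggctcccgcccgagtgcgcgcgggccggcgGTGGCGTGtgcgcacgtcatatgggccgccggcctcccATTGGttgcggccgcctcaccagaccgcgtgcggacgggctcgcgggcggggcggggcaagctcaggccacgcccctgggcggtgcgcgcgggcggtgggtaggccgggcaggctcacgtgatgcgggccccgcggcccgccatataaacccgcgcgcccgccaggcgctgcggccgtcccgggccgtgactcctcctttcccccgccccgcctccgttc
The LSS, ACSS2 and INSIG1 windows hold CCAAT once and the HMGCS1 and SCD windows hold it more than once. Neither SREBF1 nor ELOVL6 holds a match to either motif in this window. The window of PMVK, which fell in BC3 and is not printed, holds no match either. Motif matches were not tested against the direction of change. SCD and INSIG1 hold the core as well, read on the minus strand, at -114 and -208 from the start. For ACSS2 and HMGCS1 a further window at another start held no match and is not printed.

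In BC3, SREBF1, ACSS2 and ELOVL6 rose with lenalidomide and PMVK fell, and the other genes of the list did not pass the test. The 3 that rose are a regulator of lipid genes, an enzyme that makes acetyl-CoA from acetate and a fatty acid elongase; none of the cholesterol enzymes rose. The test was limma's moderated test on normalized log2 signal, with Benjamini-Hochberg adjustment over all genes and a threshold of 0.05; values below are on this scale and ± is the standard error of a difference, with n = 2 arrays a group. Of the 31 genes, 4 passed, or 12.9%, against 4.37% of all genes tested. Higher calls were 3, against 3.19% of all genes, and the 1 lower call stands against 1.18%. The median change of the list was -0.03 log2, against -0.01 for all genes, with 17 of 31 genes below 0, against 52.9% of all genes.

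Among the regulators, SREBF1, which encodes an SREBP, had 8.99 and 9.16 in BC3 with lenalidomide, against 8.56 and 8.60 with DMSO. The lenalidomide arrays were both higher, by 0.50 ± 0.12 (adjusted p = 0.0299). A dimmer SREBF1 probe did not share this: its change was -0.10 in BC3, so the rise rests on 1 of the 2 SREBF1 probes that were above background. With the mean of the probes SREBF1 had 0.20 and did not pass (adjusted p = 0.394). The other regulators were not called. INSIG1 and INSIG2, which hold SCAP in the endoplasmic reticulum, had higher values on both lenalidomide arrays, by 0.20 ± 0.15 and 0.21 ± 0.12, with adjusted p of 0.542 and 0.427. Both lenalidomide arrays lay above both DMSO arrays for 7 of 31 genes in BC3 (22.6%), near the 22.9% of all genes. SREBF2 and SCAP differed by -0.02 ± 0.14 and 0.04 ± 0.12, and their arrays overlapped.

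ACSS2, which makes acetyl-CoA from acetate, had 9.55 and 9.68 in BC3 with lenalidomide, against 9.08 and 8.97 with DMSO. The gap of 0.59 ± 0.12 (adjusted p = 0.0117) was well over the spread of either group, and the further probes of ACSS2 that passed the filter were also higher, by 0.49 and 0.33. ACLY, which makes acetyl-CoA from citrate, did not pass, at -0.21 ± 0.11 (adjusted p = 0.389). The sources of acetyl-CoA thus had values of opposite sign.

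ELOVL6, which lengthens palmitate, had 8.18 and 8.10 in BC3 with lenalidomide, against 7.60 and 7.44 with DMSO. Its rise of 0.63 ± 0.12 (adjusted p = 0.00982) was the highest value of the list in BC3, and its second probe had 0.54. FADS1, a desaturase of polyunsaturated fatty acids, had 10.18 and 10.14 with lenalidomide, against 9.77 and 9.69 with DMSO. These arrays did not overlap either, as for 22.9% of all genes in this direction, and the difference of 0.43 ± 0.14 had an adjusted p of 0.116. ELOVL5, an elongase of polyunsaturated fatty acids, had 10.55 and 10.31 with lenalidomide, against 10.35 and 9.40 with DMSO. One DMSO array stood far below the other 3, and the value of 0.56 ± 0.29 did not pass (adjusted p = 0.368). The remaining fatty acid enzymes, ACACA, FASN, SCD and FADS2, had values between -0.17 and 0.08, and none passed.

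In the mevalonate pathway 1 of 7 genes passed. PMVK, phosphomevalonate kinase, had 8.84 and 8.89 in BC3 with lenalidomide, against 9.34 and 9.34 with DMSO, and fell by 0.47 ± 0.11 on the log2 scale (adjusted p = 0.0319). MVK, the kinase just before it, had 7.87 and 7.57 with lenalidomide, against 8.26 and 8.13 with DMSO. Its value of -0.48 ± 0.15 was as large but did not pass (adjusted p = 0.111). ACAT2, HMGCS1, MVD, IDI1 and FDPS had values between -0.10 and 0.10. All 9 genes of the steps from squalene to cholesterol missed the threshold, 8 of them with values below 0, between -0.24 for EBP and -0.03 for CYP51A1, and HSD17B7 at 0.11. STARD4, the sterol carrier, lay near background and was above it on 1 array of each BC3 group.

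With 2 arrays a group, the BC3 calls depended on single arrays. No member passed without DMSO array b or without lenalidomide array b, ELOVL6 alone passed without DMSO array a, and ACSS2 alone passed without lenalidomide array a; the changes of all 4 genes kept their sign in each of these fits.

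**Figure D1:**
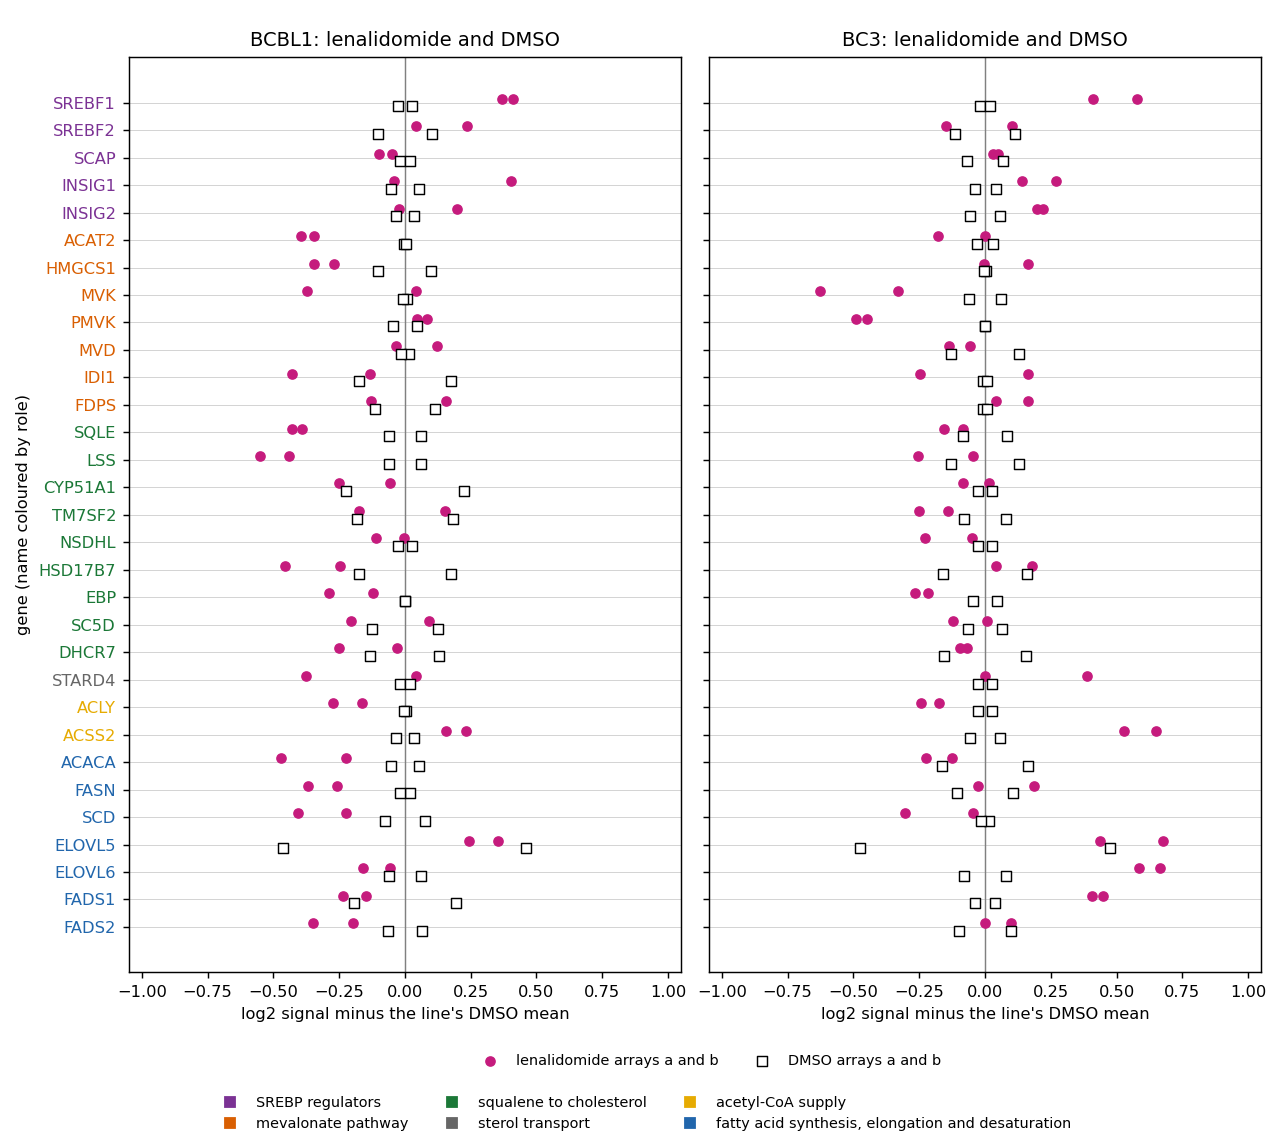
Normalized log2 signal of each of the 31 genes on each array, less the mean of the DMSO arrays of that line (horizontal axis, log2), for BCBL1 (left panel) and BC3 (right panel); filled circles are lenalidomide arrays and open squares DMSO arrays, and gene names are coloured by role. In BC3 the lenalidomide arrays of SREBF1, ACSS2 and ELOVL6 lie to the right of the DMSO arrays and those of PMVK to the left, while in BCBL1 most cholesterol and fatty acid enzymes lie to the left.

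In BCBL1, no gene of the list passed the test, against 2.9% of all genes tested, but the enzymes of both routes lay mostly lower with lenalidomide. At an unadjusted p under 0.05, 9 of 31 genes were lower (29.0%, against 7.63% of all genes) and 1 was higher (3.23%, against 8.53%). The 9 were ACAT2 and HMGCS1 of the mevalonate pathway, SQLE, LSS and HSD17B7 of the later cholesterol steps, and ACACA, FASN, SCD and FADS2 of the fatty acid route; the gene that lay higher was SREBF1. The median change was -0.16 log2, against -0.01 for all genes, and 22 of 31 genes were below 0, against 52.2% of all genes. On 12 of 31 genes both lenalidomide arrays were below both DMSO arrays (23.7% of all genes), and on 3 they were above (21.2%). Taken singly, lenalidomide arrays a and b had list medians of -0.13 and -0.15 relative to the DMSO mean, with 24 and 20 genes below 0. The lower intensity of the upper end of these 2 arrays, given above, went with this, and its part was not tested. The list median depended on the processing. It was -0.11 with cyclic loess, -0.17 with 75th percentile scaling and -0.18 on the authors' deposited log2 values.

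SREBF1 had 8.94 and 8.90 in BCBL1 with lenalidomide, against 8.56 and 8.50 with DMSO. On this probe all lenalidomide arrays thus lay above all DMSO arrays in both lines, although the BCBL1 difference of 0.39 ± 0.12 had an adjusted p of 0.105. The second probe had 0.30 in BCBL1 and did not pass (limma on all kept probes, adjusted p = 0.358). Its intensities before normalization overlapped, at 211 and 255 with lenalidomide against 225 and 209 with DMSO. SREBF2, SCAP, INSIG1 and INSIG2 had values between -0.07 and 0.18, none of which passed.

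ACAT2, the thiolase that opens the route to mevalonate, had 11.14 and 11.09 in BCBL1 with lenalidomide, against 11.48 and 11.49 with DMSO. The groups were well apart, at -0.37 ± 0.12 (adjusted p = 0.124), but a much dimmer ACAT2 probe had 0.22, and the mean of the probes gave -0.08 (adjusted p = 0.804). HMGCS1, which makes HMG-CoA, had 9.11 and 9.18 with lenalidomide, against 9.55 and 9.35 with DMSO, a difference of -0.31 ± 0.12 (adjusted p = 0.234). The other mevalonate genes, from MVK to FDPS, had values between -0.28 and 0.07, and PMVK, which fell in BC3, had 10.44 and 10.40 with lenalidomide against 10.31 and 10.40 with DMSO.

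From squalene to cholesterol all 9 genes had values below 0. LSS, which closes the sterol ring, had 8.52 and 8.63 in BCBL1 with lenalidomide, against 9.14 and 9.01 with DMSO. Its -0.50 ± 0.13 was the lowest value of the list and came nearest to the threshold (adjusted p = 0.0730). It rests on the brightest of 3 LSS probes: the others, near background, had -0.03 and -0.09, and with the mean of the probes LSS had -0.20 (adjusted p = 0.417). SQLE, squalene epoxidase and an early oxygen-requiring step, had 11.50 and 11.54 with lenalidomide, against 11.87 and 11.99 with DMSO, at -0.41 ± 0.12 (adjusted p = 0.0962). Its second probe was lower too, at -0.28. HSD17B7, which acts in removing methyl groups from the sterol ring, had 10.87 and 11.08 with lenalidomide, against 11.15 and 11.50 with DMSO, at -0.35 ± 0.15 (adjusted p = 0.276). The remaining 6 genes lay between -0.20 for EBP, whose arrays did not overlap, and -0.01 for TM7SF2.

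Of the 7 fatty acid genes, 6 had values below 0 and none passed. ACACA, acetyl-CoA carboxylase, had 8.85 and 9.10 in BCBL1 with lenalidomide, against 9.37 and 9.27 with DMSO, at -0.35 ± 0.14 (adjusted p = 0.238), and its second probe had -0.43. FASN, which builds palmitate, had 11.55 and 11.66 with lenalidomide, against 11.94 and 11.90 with DMSO, at -0.31 ± 0.13 (adjusted p = 0.243). No array of these groups crossed into the other. SCD, which puts a double bond into saturated fatty acids, had 11.11 and 11.29 with lenalidomide, against 11.44 and 11.59 with DMSO, at -0.32 ± 0.13 (adjusted p = 0.247). FADS2, a desaturase near background, had 6.39 and 6.24 with lenalidomide, against 6.65 and 6.52 with DMSO, and was above background on both DMSO arrays and neither lenalidomide array. ELOVL6 had -0.11 ± 0.12, and FADS1, not above background on any BCBL1 array, had -0.19 ± 0.14. ELOVL5 alone lay above 0, at 0.30 ± 0.29, with DMSO arrays that lay far apart. Of the acetyl-CoA genes, ACLY was at -0.21 ± 0.11, with -0.49 on its second probe, and ACSS2 at 0.19 ± 0.12, with 9.17 and 9.09 with lenalidomide against 8.97 and 8.90 with DMSO. Before normalization the ACSS2 intensities overlapped and were not higher, at 529.5 and 559.6 with lenalidomide against 546.9 and 560.9 with DMSO.

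The count of 9 lower genes at the unadjusted threshold was 4 without lenalidomide array a. It was 5 with a background offset of 16 in place of 50, and 5 on the authors' deposited log2 values.

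**Figure D2:**
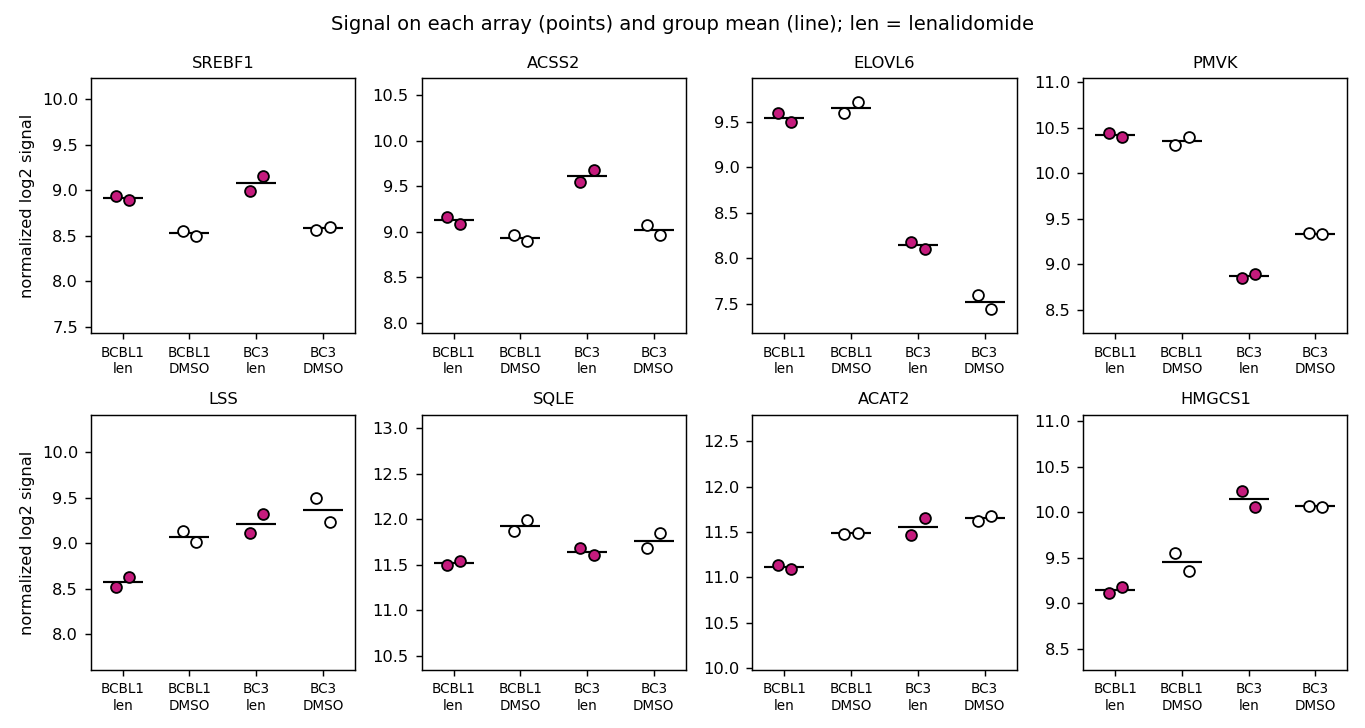
Normalized log2 signal (vertical axis) of the 4 genes called in BC3 (top row) and of 4 cholesterol genes with low values in BCBL1 (bottom row), with a point for each array and a line at the group mean; len stands for lenalidomide and each panel spans the same number of log2 units. SREBF1 is higher with lenalidomide in both lines, ELOVL6 and PMVK differ between treatments in BC3, and LSS, SQLE, ACAT2 and HMGCS1 lie lower with lenalidomide in BCBL1.

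Whether the lines differed in their response was tested directly, as the BCBL1 change minus the BC3 change. No gene of the list passed (0.459% of all genes did), so a different response in the lines was not shown for any of them. At an unadjusted p under 0.05 the difference was below 0 for ELOVL6, FADS1, ACSS2, FASN and HMGCS1 and above 0 for PMVK, or 5 and 1 of 31, against 5.32% and 4.98% of all genes. ELOVL6 had the largest, at -0.73 ± 0.17 (adjusted p = 0.113), with a change of -0.11 in BCBL1 and 0.63 in BC3. PMVK had 0.54 ± 0.16 (adjusted p = 0.239), with 0.07 in BCBL1 and -0.47 in BC3. For FADS1 the difference of -0.62 ± 0.19 (adjusted p = 0.273) rests on the BC3 signal alone, since the gene was not above background on any BCBL1 array. All 7 genes of the fatty acid group had a difference below 0, and 24 of the 31 genes did, against 49.8% of all genes.

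A further fit averaged the arrays of each group and took the line as the replicate, with n = 2 lines. No gene of the list passed, against 1.92% of all genes. At an unadjusted p under 0.05, SREBF1 (0.44 ± 0.11, adjusted p = 0.0914), ELOVL5 (0.43 ± 0.12, adjusted p = 0.121) and ACSS2 (0.39 ± 0.13, adjusted p = 0.192) were higher and LSS, MVK, SQLE and ACACA were lower, with values from -0.26 to -0.32. These are 3 and 4 of 31, against 7.8% and 6.43% of all genes. The number lower depended on the processing: it was 1 with an offset of 16, with cyclic loess and on the authors' deposited log2 values, 5 with no filter, the stricter filter or the mean of probes, and 8 with 75th percentile scaling. SREBF1 stood at the top and LSS at the bottom of the list, and all 9 genes from squalene to cholesterol were below 0, with a median of -0.11.

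**Figure D3:**
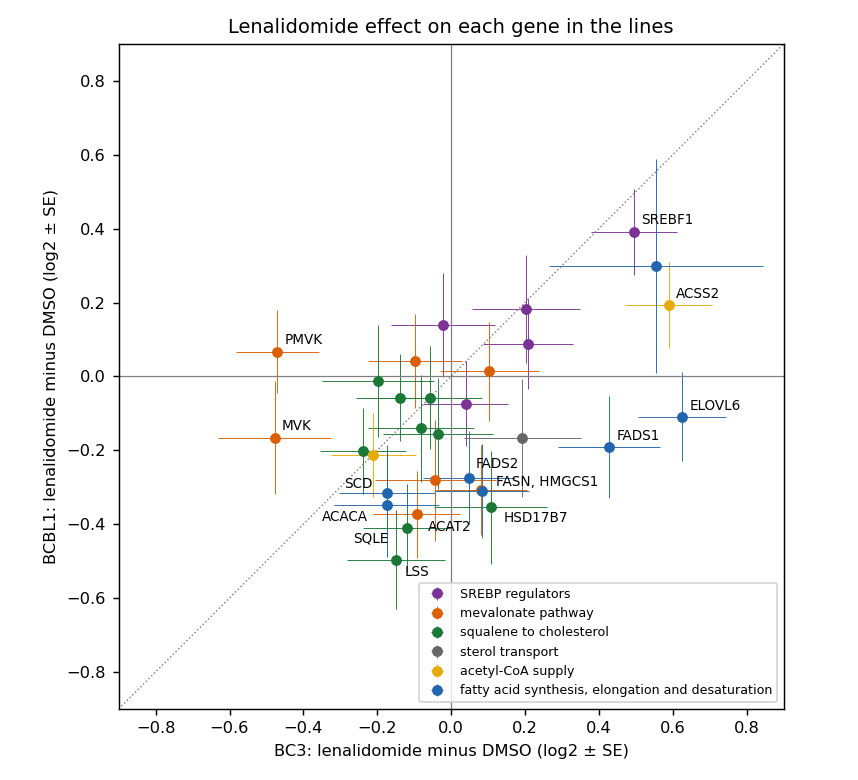
Change with lenalidomide in BCBL1 (vertical axis) against that in BC3 (horizontal axis) for the 31 genes, in log2 with bars of 1 standard error and points coloured by role; the dotted line marks equal change, and genes with an unadjusted p under 0.05 in either line or for the difference are named. SREBF1 and ACSS2 lie above 0 in both lines, ELOVL6 and FADS1 to the right with BCBL1 values just below 0, and most enzymes below 0 in BCBL1.

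Many more genes differed between the lines than between treatments. Under DMSO, 17 of 31 genes (54.8%) passed between BCBL1 and BC3, against 40.5% of all genes tested: 7 were higher in BCBL1 (20% of all genes) and 10 lower (20.5%). Genes of both routes lay on both sides. Of the 10 lower genes, 8 encode enzymes of cholesterol synthesis, as do 4 of the 7 higher ones, PMVK, FDPS, CYP51A1 and HSD17B7. The other 3 higher genes, ACACA, FASN and ELOVL6, build and lengthen saturated fatty acids, while FADS1, a fatty acid gene too, had the lowest value of the list. No test was made of such a split. The median of the list was 0.05, against 0.00 for all genes.

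Of the regulators, INSIG1 alone passed. Its signal was 9.66 and 9.77 in BCBL1, against 10.83 and 10.91 in BC3, a difference of -1.15 ± 0.15 (adjusted p = 3.3e-05). A dimmer INSIG1 probe had a smaller difference of -0.50, which did not pass (limma on all kept probes, adjusted p = 0.0593). SREBF1, SREBF2, SCAP and INSIG2 differed by -0.05 to 0.28 and did not pass.

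In the mevalonate pathway, MVK had 7.08 and 7.07 in BCBL1, against 8.26 and 8.13 in BC3, a difference of -1.12 ± 0.15 (adjusted p = 5.76e-05). PMVK ran the other way, with 10.31 and 10.40 in BCBL1, against 9.34 and 9.34 in BC3, a difference of 1.02 ± 0.11 (adjusted p = 9.42e-06). The kinases that follow each other in the route thus differed between the lines in opposite directions, by about the same amount. HMGCS1, at 9.55 and 9.35 in BCBL1 against 10.07 and 10.06 in BC3, had a difference of -0.61 ± 0.12 (adjusted p = 0.00137). MVD, the decarboxylase after PMVK, had 6.68 and 6.65 in BCBL1, against 7.12 and 7.37 in BC3 (-0.58 ± 0.13, adjusted p = 0.00263). IDI1, which isomerises the isoprene unit, had 8.78 and 8.43 in BCBL1, against 9.25 and 9.26 in BC3 (-0.65 ± 0.16, adjusted p = 0.00679). FDPS, which joins isoprene units, was slightly higher, at 9.81 and 9.59 in BCBL1 against 9.32 and 9.33 in BC3 (0.38 ± 0.13, adjusted p = 0.0399), and ACAT2 did not pass.

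Of the later cholesterol enzymes, TM7SF2, a sterol reductase, showed the widest gap, with 8.74 and 8.38 in BCBL1 against 11.02 and 11.18 in BC3. Its difference was -2.54 ± 0.15 (adjusted p = 2.38e-08), which is 0.172 times the BC3 signal. SC5D, a sterol desaturase, had 7.15 and 6.90 in BCBL1, against 8.15 and 8.02 in BC3 (-1.06 ± 0.14, adjusted p = 4.63e-05). EBP, a sterol isomerase, had 10.32 and 10.32 in BCBL1, against 11.06 and 11.15 in BC3 (-0.79 ± 0.12, adjusted p = 1.33e-04). NSDHL, an enzyme of sterol ring demethylation, had 8.66 and 8.60 in BCBL1, against 9.29 and 9.24 in BC3 (-0.64 ± 0.12, adjusted p = 7.99e-04). Both genes of this group that were higher in BCBL1 were so by less. CYP51A1, which demethylates lanosterol, had 8.17 and 8.62 in BCBL1, against 7.98 and 7.93 in BC3 (0.44 ± 0.15, adjusted p = 0.0306). HSD17B7, whose arrays are given above for BCBL1, had 11.04 and 10.72 in BC3 (0.44 ± 0.15, adjusted p = 0.0347). LSS, SQLE and DHCR7, the reductase of the last step, did not pass. The calls of FDPS, CYP51A1, HSD17B7 and IDI1 were lost when some arrays were left out or under other settings: FDPS passed in 9 of 17 settings, HSD17B7 in 11, CYP51A1 in 12 and IDI1 in 16.

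Of the fatty acid enzymes, ELOVL6 had 9.60 and 9.72 in BCBL1, against 7.60 and 7.44 in BC3, or 4.40 times the signal (2.14 ± 0.12, adjusted p = 1.33e-08). ACACA, at 9.37 and 9.27 in BCBL1 against 8.70 and 8.38 in BC3, was higher by 0.78 ± 0.14 (adjusted p = 6.12e-04). FASN, at 11.94 and 11.90 in BCBL1 against 11.29 and 11.08 in BC3, was higher by 0.74 ± 0.13 (adjusted p = 4.51e-04). Of the other elongation genes that passed in the companion lists, HACD3 was higher in BCBL1 and the rest were lower. TECR, a reductase of the elongation cycle, was lower in BCBL1, at -0.54 ± 0.11 (adjusted p = 0.00185). So were HACD2, a dehydratase of it, at -0.37 ± 0.11 (adjusted p = 0.0204), and the elongase ELOVL1 at -0.37 ± 0.12 (adjusted p = 0.0256). The elongases ELOVL4 and ELOVL7 were lower too, at -0.52 ± 0.14 (adjusted p = 0.00832) and -0.44 ± 0.15 (adjusted p = 0.0356). Both lay near background in BCBL1 under DMSO, with intensities of 138 and 147 for ELOVL4 and 146 and 147 for ELOVL7. HACD3, another dehydratase of the cycle, was higher, at 0.73 (adjusted p = 7e-04). TECR, HACD2, ELOVL1, ELOVL4 and ELOVL7 were picked after their values were seen. FADS1, unlike ELOVL6, ACACA and FASN, was lower in BCBL1: it had 5.95 and 6.34 in BCBL1, against 9.77 and 9.69 in BC3, and was above background on all 4 BC3 arrays and on no BCBL1 array. The fold is therefore a bound, set as the BC3 mean against a BCBL1 floor, which on each array is the dimmest detected signal or that of the FADS1 probe, whichever is greater: FADS1 was at least 10.0-fold lower in BCBL1 (adjusted p = 2.56e-10). SCD, ELOVL5 and FADS2 did not pass, nor did ACLY and ACSS2, which differed by less than 0.10 log2 in size. Of the plasma cell markers, JCHAIN, TNFRSF17, CD38 and XBP1 were lower in BCBL1 and SDC1 higher, with differences of -2.70, -1.98, -1.29, -0.61 and 1.68 log2; their part in these differences was not tested.

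**Figure D4:**
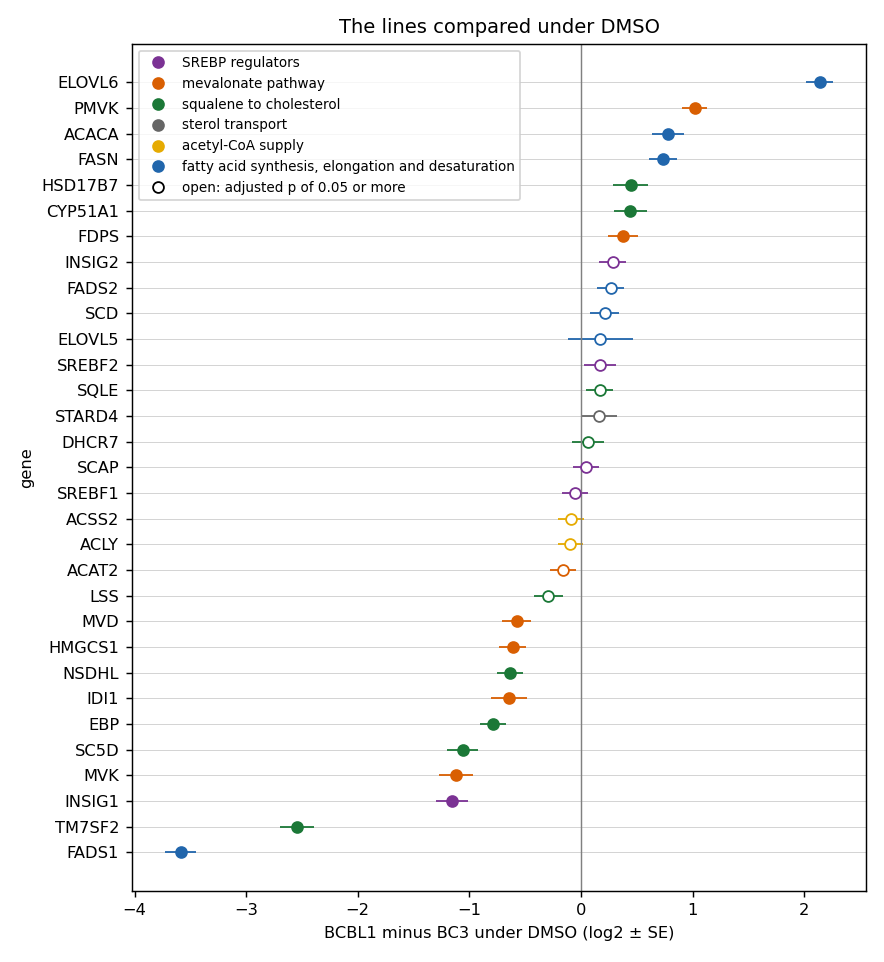
Difference of BCBL1 minus BC3 under DMSO for each of the 31 genes (horizontal axis, log2, bars of 1 standard error), ordered by value and coloured by role; filled points passed the adjusted test and open points did not. FADS1 and TM7SF2 lie at the low end, at -3.59 and -2.54, and ELOVL6 at the high end, at 2.14.

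Other lipid genes were read beside the list, from companion lists chosen by role. For lenalidomide in BC3, 2 of 79 companion genes tested passed, both higher, against 4.37% of all genes. LPIN1, a phosphatidate phosphatase of glycerolipid synthesis, had intensities of 1832 and 1268 in BC3 with lenalidomide, against 675 and 688 with DMSO, a rise of 1.29 ± 0.14 log2 (adjusted p = 1.07e-04). In BCBL1 it had 1397 and 1462 with lenalidomide, against 1193 and 1517 with DMSO, and did not pass (0.31 ± 0.14, adjusted p = 0.287); the difference between the lines was -0.98 ± 0.20 (adjusted p = 0.0501). SLC25A20, which carries acylcarnitines into mitochondria for oxidation, had 507 and 362 in BC3 with lenalidomide, against 305 and 293 with DMSO (0.60 ± 0.14, adjusted p = 0.0255). By list, 1 of 22 further fatty acid and lipid assembly genes and 1 of 11 oxidation genes passed, and none of the 11 genes of SREBP cleavage and INSIG turnover, 13 further sterol and isoprenoid enzymes, 15 genes of sterol export, uptake and storage or 7 of NADPH supply.

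In BCBL1, 3 of the same 79 companion genes passed, against 2.9% of all genes. ABCA1, the exporter that loads cholesterol onto lipoprotein, had intensities of 306 and 399 with lenalidomide, against 194 and 186 with DMSO, and rose by 1.37 ± 0.13 log2 (adjusted p = 7.23e-05). It was the only 1 of 15 genes of sterol export, uptake and storage to pass. ACADVL, which opens the oxidation of very long fatty acids, rose by 0.57 ± 0.13 (adjusted p = 0.0322), with intensities of 4717 and 4426 with lenalidomide, against 3515 and 3610 with DMSO. PAQR3, a Golgi protein that holds SCAP and SREBP there, fell by 0.54 ± 0.12 on the log2 scale (adjusted p = 0.0296), with 277 and 293 with lenalidomide against 431 and 425 with DMSO. In the further sterol enzymes 10 of 13 values were below 0, with a median of -0.10, and in the further fatty acid genes 16 of 22, with a median of -0.14, against 52.2% of all genes below 0; none of these passed. The calls of SLC25A20, PAQR3 and ACADVL held in 10, 8 and 6 of 17 settings, and those of LPIN1 and ABCA1 in all 17.

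Between the lines under DMSO, 42 of the 79 companion genes passed, 21 higher and 21 lower in BCBL1, against 40.5% of all genes, 20% higher and 20.5% lower; counts in lists this short are read against those shares. In sterol export, uptake and storage 3 of 15 genes were higher and 3 lower. LIPA, NPC1 and NPC2, which free cholesterol and take it out of lysosomes, had differences of -1.59, -1.55 and -1.21 log2, and RXRA, the partner of LXR, had 1.30. Of the NADPH supply genes 4 of 7 were lower and none higher: PGD at -1.07, TALDO1 at -0.86, ME1 at -0.52 and IDH1 at -0.47, enzymes of the pentose phosphate route and of NADPH-making oxidations. ME1 was not above background on either BCBL1 DMSO array (intensities 124 and 133) and was dim in BC3 (145 and 170). Its value is therefore not a measured fold. SREBP cleavage and INSIG turnover had 4 higher and 1 lower of 11, and the 4 with the largest differences, NPLOC4, ERLIN2, FAF2 and RNF145, had 0.91, 0.75, 0.55 and 0.52. These encode parts of the machinery that removes proteins from the endoplasmic reticulum. In the same list UBE2G2, UFD1 and ERLIN1 had 0.23, -0.07 and -0.15 and did not pass. The further sterol and isoprenoid enzymes had 5 higher and 3 lower of 13, with POR, which feeds electrons to CYP51A1 and SQLE, at -0.89, PDSS1, which makes the tail of coenzyme Q, at 0.72, and the prenyltransferase subunits FNTA and FNTB at 0.65 and -0.58. Further fatty acid and lipid genes had 5 higher and 9 lower of 22. LPIN1 had 1.10, the acyl-CoA synthetases ACSL1 and ACSL4 had 0.93 and -0.75, and the elongation-cycle dehydratase HACD3 had 0.73. The ACSL4 call was lost with the mean of its probes (-0.25, adjusted p = 0.121), and those of FNTB, IDH1 and ECI1 held in 16, 15 and 12 of 17 settings. Oxidation genes had 4 higher and 1 lower of 11, with HADHB and HADHA, the subunits of the trifunctional protein, at 0.85 and 0.74, SLC25A20 at 0.74 and ECI1, an isomerase for unsaturated fatty acids, at -0.44.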

How the data were processed

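Total RNA was labelled with Cy3 and hybridised to Illumina 1-colour bead arrays, per the labels. The authors deposited intensity values of 47323 probes on a linear scale, not normalized between arrays, as judged from the values, and a second table for these arrays in log2 values; limma is the one tool in the submitters' processing notes, with no offset stated. The intensity columns carry no replicate number, so arrays are called a and b; each ranks its probes as 1 column of the log2 table does.

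Intensities were background-corrected (limma 3.58.1 in R 4.3.3, normexp, offset 50), quantile-normalized and taken to log2, which understates the change of dim genes. The files hold no detection p-values, so in place of the planned filter a probe was called above background by the mode of its array's signals and the spread below it (p of 0.05), a choice made after seeing the data. Of 47322 probes without a 0, 24523 (51.8%) were kept. Probes with 1 symbol in the platform annotation (30113) were updated through RefSeq (30074 found), which left 12864 genes. limma was fitted with a mean per group over all 8 arrays (4 residual and 8.74 prior degrees of freedom; 1 and 9 for the fit on lines), with Benjamini-Hochberg adjustment at 0.05, and was tested on simulated data. Precision is limited by there being 2 arrays a group.

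The listed genes, companion lists and tests were chosen with earlier results of these data known. All listed genes are named; array values are given for those called in any comparison or with an unadjusted p under 0.05 within a line, and called companion genes are named, up to 4 per list and comparison by size. ELOVL5 was added for its spread. The alternatives were the offset, scaling, filter, probe rule, deposited log2 values, replicate block, samples fitted and each array left out. Motifs were chosen after a stricter sterol element found 1 window. No slide or scan batch is given in the files.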

Additional observations from a re-analysis of the deposited data

Results flagged for a closer look

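ABCA1, the cholesterol exporter, was the only gene outside the list of synthesis genes, among the companion genes tested, whose lenalidomide effect differed between the lines by the test of the difference itself. The effect in BCBL1 minus that in BC3 was 1.33 ± 0.19 log2 (limma, adjusted p = 0.00707), from 1.37 ± 0.13 in BCBL1 and 0.04 ± 0.13 in BC3. Of the 79 companion genes 1 passed this test, against 0.459% of all genes. Intensities were 306 and 399 in BCBL1 with lenalidomide, against 194 and 186 with DMSO, and 162 and 152 in BC3 with lenalidomide, against 144 and 165 with DMSO. The BC3 signals lay close above background, with thresholds of 152 and 144 on the lenalidomide arrays and 139 and 153 on the DMSO arrays. A change in BC3 would be understated there. The difference passed in 15 of 16 settings and had an adjusted p of 0.102 on the authors' deposited log2 values with the replicate block.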

How the results depend on the processing

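The count of listed genes called in BC3 was 4. It was 2 with an offset of 16, 2 with no filter on dim probes and 2 on the authors' deposited log2 values, ACSS2 and ELOVL6 each time. It was 3 with the mean of a gene's probes, without SREBF1, and 4 with 75th percentile scaling, cyclic loess, the stricter filter and the fit on BC3 alone. Leaving out 1 array at a time gave 0 to 4; the 0 came without DMSO array b or lenalidomide array b of BC3. In BCBL1 the count was 0, and 1 with 75th percentile scaling (LSS, -0.56, adjusted p = 0.0405). No listed gene was called for the difference between lines or for both lines together in any setting, and the count between the lines under DMSO was 14 to 17. Over all genes, calls in BC3 were 562, against 334 with an offset of 16, 361 on the deposited log2 values and 206 to 312 without a BC3 array; in BCBL1 they were 373, against 194, 221, 231 on BCBL1 alone and 151 to 197 without a BCBL1 array. For the difference they were 59, against 21 with an offset of 16, 30 on the deposited log2 values, 26 with the stricter filter and 25 to 45 without an array. For both lines they were 247, against 20 with an offset of 16, 157 with 75th percentile scaling, 140 with cyclic loess and 0 on the deposited log2 values, and the listed genes at an unadjusted p under 0.05 were 7, against 11 with 75th percentile scaling and 4 in the other settings named here. The causes were not tested. Replicate numbers did not pair the samples (correlations of deviations between -0.08 and 0.05); with the replicate block on the deposited log2 values, 1 listed gene was called in BC3 (ELOVL6), 0 in BCBL1 and 15 between the lines, and 252, 144 and 9 genes in all were called in BC3, in BCBL1 and for the difference. No result reversed. Genes near background (FADS1 in BCBL1, FADS2, STARD4) have little range to fall. The same holds for the companion genes ME1, ELOVL4 and ELOVL7 in BCBL1 and ABCA1 in BC3.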
